A study of Mus musculus with 6 samples.

Results

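The angiopoietins, the Tie receptors and the phosphatase that restrains them were examined in liver sinusoidal endothelial cells, which form the porous lining of hepatic capillaries. The genes were taken by symbol: the ligands Angpt1, Angpt2 and Angpt4, the receptors Tek (Tie2) and Tie1, and the phosphatase Ptprb (VE-PTP). All 6 were found among the 51165 genes of the deposited table, and 5 of them were among the 19795 genes with enough reads to test. Angpt4 did not reach that minimum.

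Cells came from C57BL/6 mice of 7 to 8 weeks, either wild type or of the genotype labelled NICeCA, and every mouse of both genotypes was given tamoxifen intraperitoneally. Per the labels, tamoxifen switched on Notch signalling in the NICeCA mice; the labels name neither the allele nor the promoter that drives it, and give no tamoxifen dose. Paired reads of 150 bases were obtained from 3 wild type libraries, numbered 1, 3 and 4, and 3 NICeCA libraries, numbered 1, 2 and 3. The labels do not say which libraries came from separate animals, so p-values reflect the variation among libraries, part of which may be technical.

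Angiopoietin 1, made mainly by cells around vessels, activates the receptor Tek and keeps endothelium quiescent. Angiopoietin 2, made by endothelial cells themselves, can oppose it or act as a weak agonist, and its gene is driven by FOXO1, a transcription factor that Tek signalling holds out of the nucleus through Akt. Tie1 binds no angiopoietin strongly by itself and modulates Tek, while Ptprb removes phosphate from Tek and from the junction protein complex of VE-cadherin. The comparison asks how this receptor system stood in liver sinusoidal endothelium when Notch was active.

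Library totals ran from 26254649 to 30034191 counts. Hey1, a direct Notch target that served as a check of the labels, was between 5.19 and 6.31 CPM in wild type and between 24.5 and 39.3 CPM in NICeCA. CPM here are counts scaled to a common library total with TMM, the trimmed mean of M-values. All 18 pan-endothelial and all 10 sinusoidal markers were detected. Summed over their lists, pan-endothelial markers were at 15772 to 17525 CPM in wild type. They were at 16549 and 17030 CPM in NICeCA 1 and 2 and at 12184 CPM in NICeCA 3. The members of this list went both ways. Sox17 and Sox18 were higher in every NICeCA library than in every wild type library, as 11.6% of all tested genes were. Ramp2, Egfl7, Emcn and Esam were lower in every NICeCA library, as 11.8% of all tested genes were. Sinusoidal markers summed to 25308 to 26009 CPM in wild type against 22234, 17432 and 12569 CPM in NICeCA 1, 2 and 3. Neutrophil markers summed to 115 to 2320 CPM in wild type against 2598, 3636 and 13848 CPM in NICeCA 1, 2 and 3. NICeCA 3 was thus the lowest library in the pan-endothelial and sinusoidal sums and the highest in the neutrophil sum. Each NICeCA library also lay below every wild type library in the sinusoidal sum, which fell in steps, and above every one in the neutrophil sum. In bulk RNA, fewer cells of a type and less RNA per cell cannot be told apart, and this holds for each gene below.

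Upstream sequences show the setting of the receptor genes and of the silent ligand. The RefSeq promoter table (GRCm38.p6) holds windows for Tek, Tie1 and Angpt4, of which the 250 bases before the table's start were searched on both strands. Sequences are written on the gene's own strand. The Tek window ends where the deposited gene begins, but 203 of its bases lie inside the longer RefSeq span of Tek, and 212 bases of the Tie1 window lie in a GENCODE M21 exon of Tie1. Only the bases before every annotated start are printed, 47 for Tek, 38 for Tie1 and all 250 for Angpt4. Capitals mark GGAA or its reverse complement TTCC, the core recognised by ETS factors, which are widely described at endothelial genes.
Tek, chr4:94739039-94739085, plus strand: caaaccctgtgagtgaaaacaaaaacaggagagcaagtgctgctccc
Tie1, chr4:118490062-118490099, minus strand: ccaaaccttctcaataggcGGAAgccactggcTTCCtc
Angpt4, chr2:151910957-151911206, plus strand: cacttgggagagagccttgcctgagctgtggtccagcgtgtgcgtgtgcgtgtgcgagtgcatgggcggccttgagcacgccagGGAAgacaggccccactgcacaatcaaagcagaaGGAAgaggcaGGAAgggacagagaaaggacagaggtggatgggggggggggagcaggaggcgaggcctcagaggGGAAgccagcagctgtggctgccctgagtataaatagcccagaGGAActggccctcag
The whole Tie1 window held 7 matches, 2 of them in the bases printed, and 3.82% of all 32851 promoter windows held as many or more. The Angpt4 window held 5 matches (18.0% of windows held as many or more) and the whole Tek window held 2 (76.8%), neither in the bases printed. At least 1 match was present in 93.4% of windows, so the core by itself is common. The letters TGGGAA or TTCCCA, the core of the Notch partner RBPJ, occurred once among these windows, in Tie1 at 16 bases before the table's start, within the annotated exon. That match overlaps an ETS core, and 21.6% of all windows hold the same letters. The forkhead letters TTTACA (11.2% of windows) and GTAAACA (3.17%) or their reverse complements were in none of the 3 windows. A match is a description of letters, not of binding.

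The levels per length fell into a steep order that was the same in 6 of 6 libraries: Ptprb, Tie1, Tek, Angpt2, Angpt1, Angpt4. In RPKM, reads per kilobase of gene length scaled by the library total, the wild type means were 548 ± 20.3 for Ptprb, 237 ± 33.8 for Tie1 and 167 ± 23.0 for Tek (SD, n = 3). The ligands were far lower, with 7.93 ± 1.49 for Angpt2, 1.38 ± 0.353 for Angpt1 and 0.0465 ± 0.0602 for Angpt4. In NICeCA the means were 509 ± 106, 208 ± 33.0 and 122 ± 30.1 for Ptprb, Tie1 and Tek, and 15.5 ± 1.42, 1.59 ± 0.714 and 0.0151 ± 0.0131 for Angpt2, Angpt1 and Angpt4. No neighbours in this order overlapped within a genotype. The order rests on the deposited gene lengths. For Tie1 that length is 3879 bases, against 4917 merged exon bases in GENCODE M21, and for Tek it is 4714 against 4712. Levels by the merged exon length were not computed, so the order of Tie1 and Tek holds for the deposited lengths alone. Among tested protein-coding genes, Ptprb ranked between 42 and 74 by RPKM in the 6 libraries, and its reads made up 0.499% to 0.742% of all counts.

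**Figure D1:**
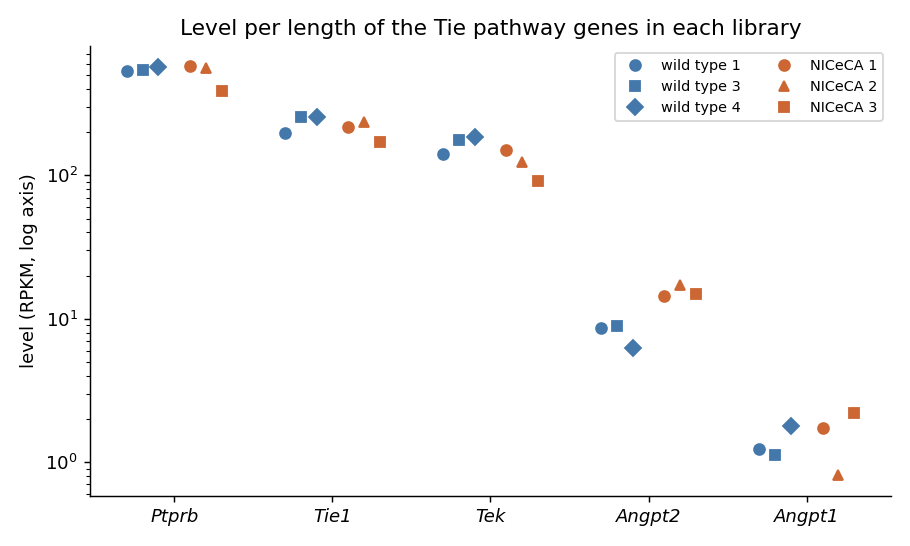
Level per length of 5 genes (RPKM, log axis) in each library, wild type in blue and NICeCA in orange, with marker shape for the library number. The receptors and Ptprb lie between 91.1 and 576 RPKM, Angpt2 between 6.22 and 17.1 and Angpt1 between 0.811 and 2.22; Angpt4, with 0 to 5 reads per library, is not drawn.

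Angpt2 was the ligand that separated the genotypes. It lies at chr8:18690263-18741562 on the minus strand and was counted with 928, 832 and 632 reads in wild type 1, 3 and 4, against 1529, 1774 and 1511 reads in NICeCA 1, 2 and 3. As normalised read counts these were 32.8, 31.9 and 22.8 CPM in wild type against 50.5, 59.9 and 50.2 CPM in NICeCA. All 3 NICeCA libraries thus lay above all 3 wild type libraries, and the NICeCA mean was 1.84-fold that of wild type, a log2 fold change of 0.88 ± 0.16 (SE; 95% interval 0.49 to 1.26, not adjusted for multiple testing).

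By edgeR's quasi-likelihood test Angpt2 did not pass over all genes (Benjamini-Hochberg adjusted p = 0.131), whereas DESeq2 called it (log2 fold change 0.88 ± 0.20, adjusted p = 0.000986). Over the whole table edgeR called 0.0455% of the genes, 9 in all (5 higher and 4 lower; 6 and 2 with library totals alone as scaling). DESeq2 called 5.6% of its genes, and 3.71% were called as higher. Complete separation of the libraries with NICeCA above, as for Angpt2, was seen in 11.6% of genes, and with NICeCA below in 11.8%. Of the 5 tested members edgeR called 0, with 1 higher and 1 lower at an unadjusted p under 0.05, where 9.12% and 7.38% of all tested genes stood, and DESeq2 called 1. DESeq2 called Angpt2 with each library left out in turn (adjusted p from 0.000695 to 0.0322), and edgeR in none of these sets (0.121 to 0.368).

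Angpt2 lies within the span of Mcph1, a gene of chromosome condensation on the opposite strand, and the same-strand non-coding Gm35832 lies within the span of Angpt2. Strand use in counting is not given in the sources used here. Mcph1 shares no exon base with Angpt2 in the GENCODE M21 annotation and had 175 to 281 reads per library, with a log2 fold change of -0.022 ± 0.216 (adjusted p = 0.973 by edgeR). Gm35832 had 10, 14 and 4 reads in wild type 1, 3 and 4, against 21, 22 and 22 reads in NICeCA 1, 2 and 3. It was not found under that name in the GENCODE M21 annotation, so exon bases shared with Angpt2 were not computed. Its part in the Angpt2 count was not tested.

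Angpt1, the Tek agonist (chr15:42424667-42676977, minus strand), was counted with 163, 130 and 224 reads in wild type 1, 3 and 4, against 227, 104 and 279 reads in NICeCA 1, 2 and 3. NICeCA held both the highest and the lowest library, so the groups overlapped. The log2 fold change was 0.11 ± 0.37 (95% interval -0.77 to 0.99; adjusted p = 0.923 by edgeR and 0.950 by DESeq2). That interval holds the value found for Angpt2. Its sign turned without wild type 3 (-0.038) and without NICeCA 3 (-0.19).

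Angpt1 is known from cells around vessels and from megakaryocytes, so the marker levels of other cells are given beside it. In CPM, Angpt1 stood at 5.76, 4.98 and 8.08 in wild type 1, 3 and 4, against 7.49, 3.51 and 9.27 in NICeCA 1, 2 and 3. The 6 hepatocyte markers, led by albumin and all detected, summed to 413, 471 and 729 CPM in wild type 1, 3 and 4, against 569, 352 and 693 CPM in NICeCA 1, 2 and 3. Albumin made up most of that sum, at 309 to 609 CPM (Alb), and other members differed: Cyp2e1, a hepatocyte cytochrome, was at 4.94 to 18.1 CPM in wild type against 1.28 to 2.49 CPM in NICeCA (adjusted p = 0.124 by edgeR and 2.22e-06 by DESeq2). The 12 stellate cell and fibroblast markers, all detected, summed to 1159 to 1643 CPM in wild type against 1036 to 1138 CPM in NICeCA. The members went both ways: DESeq2 called 2 higher and 4 lower, where it called 5.6% of its genes in either direction. By edgeR 0 were called, and 4 were higher and 4 lower at an unadjusted p under 0.05. Of all tested genes, 9.12% were higher and 7.38% lower by that measure. The collagen gene Col1a1 was at 7.90 to 14.8 CPM in wild type against 36.8 to 73.2 CPM in NICeCA and Col1a2 at 38.3 to 53.5 against 63.7 to 87.2 CPM (adjusted p = 2.86e-07 and 0.0171 by DESeq2), while Hgf, Lrat, Ecm1 and Dcn were called lower.

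The 6 smooth muscle markers, all detected and with Des shared with the stellate list, summed to 132 to 171 CPM in wild type against 147 to 186 CPM in NICeCA, most of it Smtn. DESeq2 called 3 of them higher and edgeR 1. Over all genes DESeq2 called 3.71% as higher, and edgeR called 0.0455% in either direction. Myh11, the smooth muscle myosin heavy chain, was at 5.48 to 5.67 CPM in wild type against 14.2 to 18.3 CPM in NICeCA, a log2 fold change of 1.59 ± 0.15 (adjusted p = 0.0367 by edgeR and 6.79e-13 by DESeq2). Without wild type 1, 3 or 4 or NICeCA 3 edgeR called 0 genes, so its call of Myh11 was lost, while DESeq2 called it with each library left out. Acta2, smooth muscle actin, was at 2.12 to 2.53 CPM against 5.65 to 12.1 CPM and Tagln at 8.69 to 12.6 against 16.4 to 16.8 CPM (adjusted p = 1.57e-06 and 0.0457 by DESeq2). Myh11, Acta2 and Tagln were each higher in every NICeCA library than in every wild type library, as 11.6% of all tested genes were. Cnn1, Des and Smtn overlapped between genotypes. The 8 Kupffer cell markers, all detected, summed to 113 to 1805 CPM in wild type and 160 to 1340 CPM in NICeCA. Of 6 megakaryocyte markers Pf4, Ppbp and Gp1bb were listed at 0 in every library, and the list summed to 7.51, 14.2 and 15.9 CPM in the wild type libraries and to at least 13.5 CPM in each NICeCA library. The part of these cells in the Angpt1 level was not tested.

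Angpt4, an angiopoietin that activates Tek in mouse, was listed with 0, 1 and 5 reads in wild type 1, 3 and 4, against 0, 1 and 1 reads in NICeCA 1, 2 and 3 (chr2:151911332-151944654, plus strand). At these counts, most at or under the 3 reads that a count of 0 allows, no difference was detectable, and no fold is given.

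Tek, the angiopoietin receptor, had a lower mean in NICeCA without passing the test. The gene lies at chr4:94739289-94874976 on the plus strand and had 20028, 21730 and 24929 reads in wild type 1, 3 and 4, against 21150, 17127 and 12298 reads in NICeCA 1, 2 and 3. After TMM scaling these were 707, 833 and 899 CPM in wild type against 698, 579 and 408 CPM in NICeCA. The groups touched but did not overlap in CPM, while in the deposited RPKM they did, with 141 in wild type 1 and 151 in NICeCA 1.

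The log2 fold change of Tek was -0.53 ± 0.22 (95% interval -1.04 to -0.024; adjusted p = 0.289 by edgeR and 0.172 by DESeq2). Without NICeCA 3 it was -0.35, and without NICeCA 1 it was -0.72, where DESeq2 called it (adjusted p = 0.0300). The summed sinusoidal markers had the same order over the NICeCA libraries as Tek, NICeCA 3 being lowest in both, and their part in the Tek level was not tested. With libraries scaled to the 18 pan-endothelial markers, which hold no member, Tek stood at -0.46 ± 0.16 (adjusted p = 0.277 by edgeR). That scaling raised the median log2 fold change of all genes by 0.109. Of the 18 markers DESeq2 called Ramp2 and Egfl7 lower (adjusted p = 0.000895 and 0.0321) and 0 higher, and edgeR called 0. Over all genes DESeq2 called 5.6% in either direction.

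Tie1, the orphan receptor that pairs with Tek, differed less. It lies at chr4:118471191-118489849 on the minus strand, with 23068, 26172 and 28358 reads in wild type 1, 3 and 4, against 25026, 26687 and 19081 reads in NICeCA 1, 2 and 3. In CPM these were 815, 1003 and 1023 against 826, 901 and 634, so the groups overlapped and NICeCA 3 alone lay below the wild type range. The log2 fold change was -0.27 ± 0.18 (95% interval -0.69 to 0.16; adjusted p = 0.508 by edgeR), and -0.13 without NICeCA 3.

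Ptprb, the endothelial receptor phosphatase (chr10:116275516-116389538, plus strand), had 205875, 182816 and 209805 reads in wild type 1, 3 and 4, against 220149, 212012 and 142778 reads in NICeCA 1, 2 and 3. After scaling, NICeCA 1 and 2, at 7268 and 7162 CPM, lay within the wild type range of 7006 to 7568 CPM, and NICeCA 3, at 4742 CPM, lay below it. The log2 fold change was -0.19 ± 0.25 (95% interval -0.78 to 0.40; adjusted p = 0.759 by edgeR), and it was -0.013 without NICeCA 3. The pan-endothelial sum was lowest in NICeCA 3 too, and with pan-endothelial scaling Ptprb stood at -0.11 ± 0.12.

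**Figure D2:**
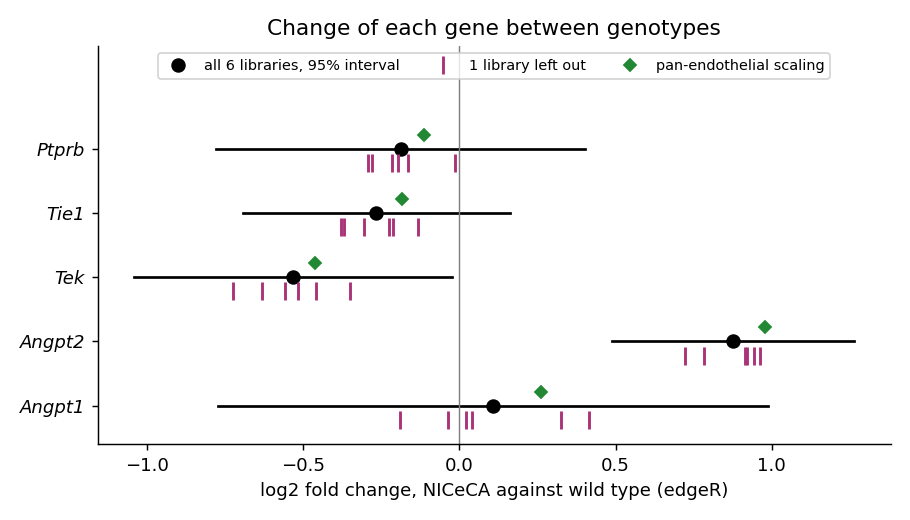
Log2 fold change of 5 genes, NICeCA against wild type, by edgeR: black points and lines give the value and its 95% interval from all 6 libraries, purple ticks the value with 1 library left out, and green diamonds the value with pan-endothelial scaling. Angpt2 stays between 0.72 and 0.98, Tek between -0.72 and -0.35, and Angpt1 lies on both sides of 0.

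Ratios within a library do not depend on its depth, and they set ligand against ligand and ligand against receptor. Per length, the Angpt2 level was 0.0614, 0.0507 and 0.0336 of the Tek level in wild type 1, 3 and 4, against 0.0957, 0.137 and 0.163 of it in NICeCA 1, 2 and 3. Every NICeCA library was above every wild type library. The mean log2 ratio went from -4.41 ± 0.445 to -2.96 ± 0.391 (SD, n = 3), a difference of 1.45, with an exact two-sided permutation p of 0.1, the smallest that 3 against 3 libraries can give.

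The Angpt2 to Angpt1 ratio overlapped between the genotypes. Angpt2 was 7.03, 7.91 and 3.49 times Angpt1 per length in wild type 1, 3 and 4, and 8.32, 21.1 and 6.69 times in NICeCA 1, 2 and 3. The mean log2 ratio was 2.53 ± 0.639 in wild type and 3.40 ± 0.879 in NICeCA, a difference of 0.87 (exact two-sided permutation p = 0.3). That difference was 0.37 without NICeCA 2 and 0.50 without wild type 4, and up to 1.19 with another library left out. NICeCA 2, the library with the fewest Angpt1 reads, gave the highest ratio.

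Among the receptor genes, Ptprb was 3.76, 3.08 and 3.08 times Tek per length in wild type 1, 3 and 4, against 3.81, 4.53 and 4.25 times in NICeCA 1, 2 and 3. Wild type 1 and NICeCA 1 nearly met, and the mean log2 difference was 0.35 (exact two-sided permutation p = 0.1, again the smallest possible). By the deposited lengths, Tie1 was 1.38 to 1.46 times Tek in wild type and 1.44, 1.89 and 1.89 times in NICeCA 1, 2 and 3. The mean log2 difference was 0.29 (exact two-sided permutation p = 0.2). NICeCA 1 lay within the wild type range of this ratio, and NICeCA 2 and 3 above it. These 4 ratios share genes and libraries, and none can pass a threshold of 0.05 in this design.

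**Figure D3:**
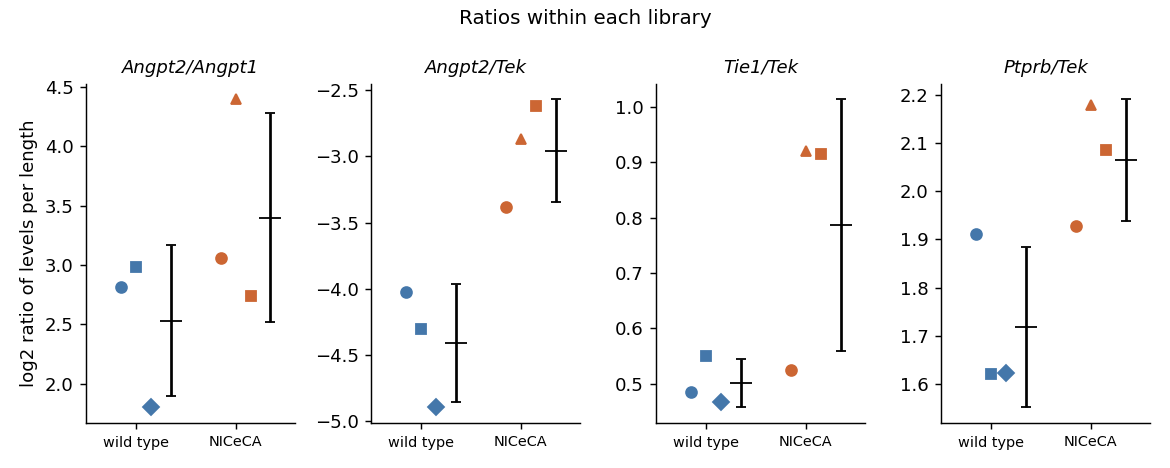
Log2 ratio of levels per length within each library for 4 gene pairs, wild type in blue and NICeCA in orange, with marker shape for the library number and black bars for mean ± SD (n = 3); the vertical ranges differ between panels. Angpt2/Tek is at -4.90 to -4.03 in wild type and -3.38 to -2.62 in NICeCA, while Angpt2/Angpt1 overlaps.

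Genes that act with the receptors were described from 7 lists of 75 genes, of which 72 were tested. By edgeR 0 passed over all genes; at an unadjusted p under 0.05, 6 were higher and 5 lower, where 9.12% and 7.38% of all tested genes stood. DESeq2 called 2, both higher, where it called 3.71% of its genes as higher. None of these shares of the 72 genes exceeded that of all genes. Log2 fold changes were positive in 33 and negative in 39, where 48.4% of all tested genes were positive.

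Both genes called by DESeq2 were adaptors or kinases. Among 22 such genes, 10 values were above 0 and 12 below it, and the median was -0.068 beside -0.014 over all tested genes. At an unadjusted p under 0.05 by edgeR, 5 of the 22 were higher and 1 lower, where 9.12% and 7.38% of all tested genes stood. Complete separation was seen with NICeCA above in 5 of the 22 and with NICeCA below in 2, against 11.6% and 11.8% of all tested genes. Iqgap1, a scaffold of the actin cytoskeleton and of signalling kinases, was at 206, 148 and 234 CPM in wild type 1, 3 and 4, against 277, 335 and 470 CPM in NICeCA 1, 2 and 3. Its groups did not overlap, and its log2 fold change was 0.88 ± 0.24 (adjusted p = 0.197 by edgeR and 0.0189 by DESeq2). Pik3cb, a catalytic subunit of phosphoinositide 3-kinase, was at 8.69 to 10.2 CPM in wild type against 11.5 to 19.8 CPM in NICeCA, a log2 fold change of 0.75 ± 0.21 (adjusted p = 0.200 by edgeR and 0.0498 by DESeq2). Both genes were highest in NICeCA 3, the library with the highest neutrophil marker sum, and leukocytes express both; the part of these cells was not tested. DESeq2 no longer called Iqgap1 without wild type 3, NICeCA 2 or NICeCA 3, and of the sets with 1 library left out it called Pik3cb in the set without NICeCA 1 alone. Nos3, the endothelial nitric oxide synthase, was at 197 to 261 CPM in wild type against 148 to 193 CPM in NICeCA, at -0.41 ± 0.15 without passing by either tool (adjusted p = 0.257 by edgeR).

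The FOXO factors, which Tek and Akt signalling restrain, did not pass by either tool. Foxo1 was at 189, 194 and 161 CPM in wild type 1, 3 and 4, against 214, 233 and 185 CPM in NICeCA 1, 2 and 3, a log2 fold change of 0.22 ± 0.13 with overlapping groups (adjusted p = 0.460 by edgeR). Foxo3 stood at -0.12 ± 0.14 and Foxo4 at -0.33 ± 0.17. Of 15 genes widely described as FOXO targets, 12 had a value above 0, where 48.4% of all tested genes did. The list median was 0.29 beside -0.014 over all tested genes, and FOXO activity was not tested. In that list 0 were called by edgeR or DESeq2, with 1 higher and 1 lower at an unadjusted p under 0.05 by edgeR. Sesn3, a stress-induced inhibitor of mTORC1 signalling, was at 0.86 ± 0.34, the antioxidant enzyme Cat at -0.35 ± 0.15 and the transcription factor Klf6 at 0.40 ± 0.18. Sesn3 and Klf6 were both highest in NICeCA 3. Klf6 had no overlap between groups, a separation with NICeCA above that 11.6% of all tested genes showed.

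Of 12 transcription factors described at Angpt2, Tek or Tie1 regulatory regions, 7 had a negative value and 0 were called by either tool, with 1 lower at an unadjusted p under 0.05 by edgeR. Rbpj, the DNA-binding partner of Notch, was at 27.9 to 34.2 CPM in wild type against 22.4 to 27.6 CPM in NICeCA, a log2 fold change of -0.32 ± 0.13 (adjusted p = 0.297 by edgeR). The ETS factors Ets1 and Elf2 were at -0.37 ± 0.19 and -0.17 ± 0.096. All 3 were lower in each NICeCA library than in each wild type library, a separation that 11.8% of all genes showed.

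Of 9 genes whose products bind angiopoietins or shed the receptors, 6 had a negative value and 0 were called by either tool, with 1 lower at an unadjusted p under 0.05 by edgeR. Mmp14, a membrane protease, was at -0.48 ± 0.19, the sheddase Adam10 at -0.28 ± 0.13 and the integrin subunit Itgav at 0.22 ± 0.14. The 8 junction and VEGF pathway genes lay between -0.30 and 0.056, with Vegfb at -0.30 ± 0.23, Pecam1 at -0.15 ± 0.15 and Kdr at -0.14 ± 0.23. None of these 8 was called by either tool or had an unadjusted p under 0.05 by edgeR, and Kdr turned to 0.029 without NICeCA 3.

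Angiopoietin-like genes, whose proteins resemble angiopoietins without binding Tek, were tested in 3 cases. All 3 values were negative, but that of Angptl1 turned positive with pan-endothelial scaling and with library totals. Angptl6 was at 38.3, 57.4 and 56.5 CPM in wild type 1, 3 and 4, against 39.7, 29.8 and 34.4 CPM in NICeCA 1, 2 and 3, so NICeCA 1 lay inside the wild type range. Its log2 fold change was -0.55 ± 0.19 (adjusted p = 0.234 by edgeR and 0.134 by DESeq2). Angptl2 was at -0.16 ± 0.19 and Angptl1 at -0.053 ± 0.30, and neither was called by either tool. Angptl7 had 0 to 11 reads per library, Angptl4 was listed at 0 in every library, and Angptl8 was not analysed here.

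**Figure D4:**
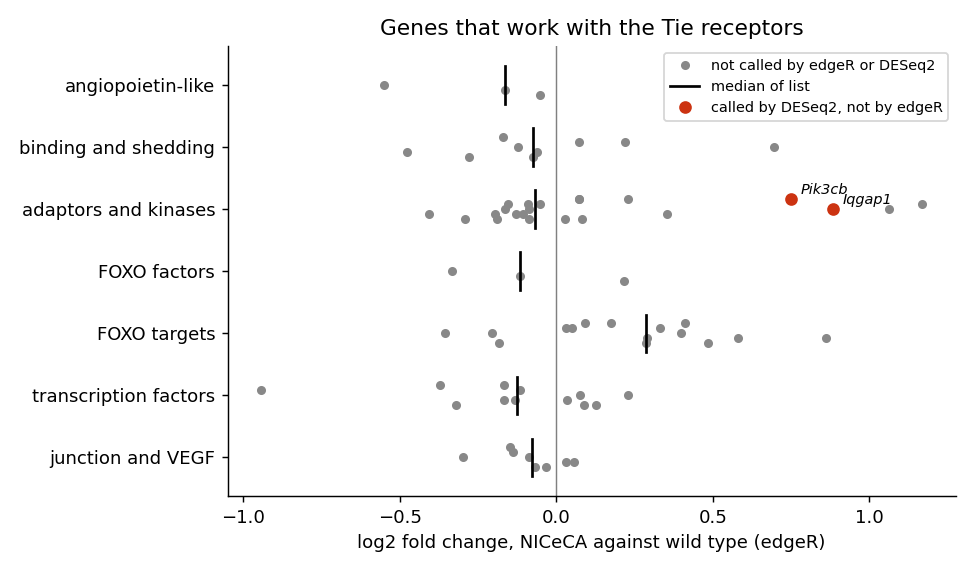
Log2 fold change of 72 genes in 7 lists, NICeCA against wild type (edgeR), each point a gene and each black line a list median; vertical scatter within a list only separates points. Pik3cb at 0.75 and Iqgap1 at 0.88 (red) were called by DESeq2, and no gene was called by edgeR.

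The genes most like each member were found by the root mean square difference of log2 CPM, centred on each gene's mean, over 6 libraries and 12618 named genes. Because the choice used the same 6 libraries, the pattern of each chosen gene follows from it, and so does its direction where the member is not near 0. Their calls are therefore no separate result. For Angpt2 the most alike genes were D8Ertd82e (0.0967), Efnb2 (0.121), the arterial ephrin ligand, and Ptp4a3 (0.126), a phosphatase, against a spread of 0.482 for Angpt2 itself. DESeq2 called all 3 as higher (adjusted p = 0.00362, 9.76e-10 and 4.76e-06) and edgeR called none (0.156, 0.0706 and 0.0962). With no filter on low counts edgeR called Efnb2 (0.0244) and Ptp4a3 (0.0326), and without NICeCA 2 DESeq2 did not call D8Ertd82e. For Tek they were Paqr7 (0.0440), a membrane progestin receptor, C1qtnf1 (0.0579) and the cytokine receptor Il27ra (0.0603), against a spread of 0.375. Each of these had lower values in all 3 NICeCA libraries without being called by either tool.

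For Tie1 the most alike genes were Zfyve9 (0.0419), Lrpap1 (0.0437) and P3h1 (0.0470), and for Ptprb they were Gpr116 (0.0439), an adhesion receptor, Arhgap32 (0.0469) and Dysf (0.0528). The spreads of Tie1 and Ptprb were 0.231 and 0.231, and in each of these 6 genes NICeCA 3 was the lowest library. For Angpt1 they were Elmo3 (0.114), Sox6 (0.120) and Tmem25 (0.131), against a spread of 0.467. Elmo3 had a log2 fold change of -0.041, of the other sign than the 0.11 of Angpt1. The libraries share depth and cell makeup across genes, so likeness of pattern is a description of these 6 libraries.

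**Figure D5:**
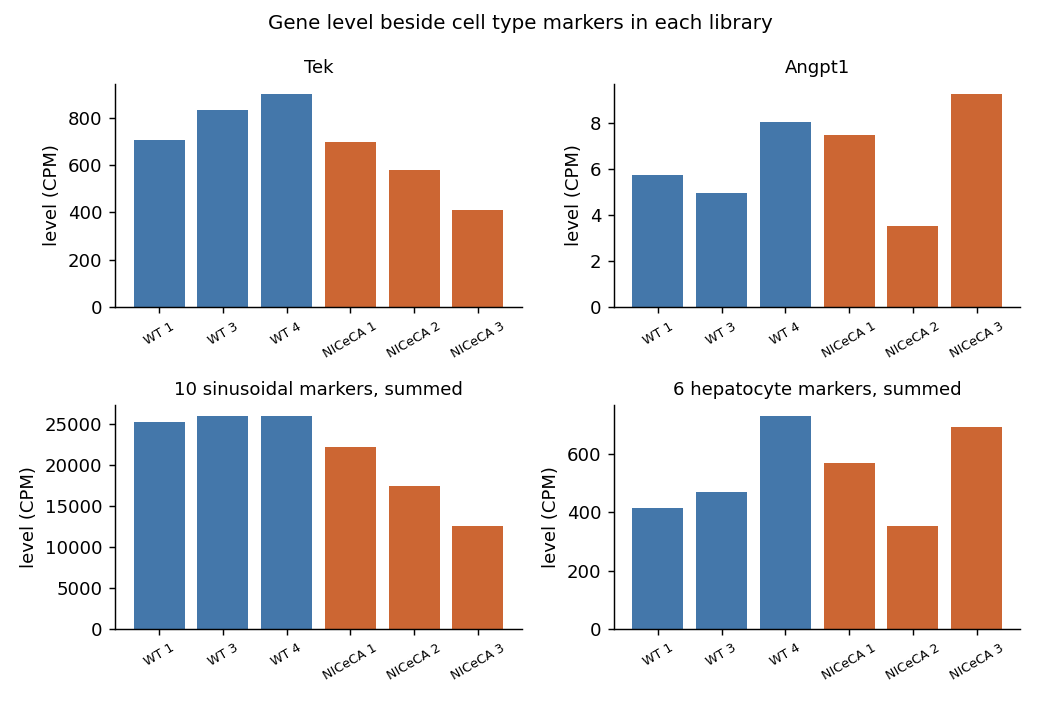
Level (CPM) of Tek above the summed level of 10 sinusoidal markers, and of Angpt1 above the summed level of 6 hepatocyte markers, in each library (WT, wild type, blue; NICeCA, orange). Tek and the sinusoidal sum are lowest in NICeCA 3, at 408 and 12569 CPM. Angpt1 and the hepatocyte sum, most of it albumin, are lowest in NICeCA 2, at 3.51 and 352 CPM. Their highest libraries differ, NICeCA 3 for Angpt1 (9.27 CPM) and wild type 4 for the hepatocyte sum (729 CPM). Hepatocytes are 1 of 12 marker lists, and the stellate and megakaryocyte sums are lowest elsewhere, in NICeCA 3 (1036 CPM) and wild type 3 (7.51 CPM).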

How the data were processed

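Per the file headers, the authors deposited raw counts and RPKM values for each gene in 1 table. The RPKM values equal count over gene length and library total (largest relative gap 5e-06 over values of 50 counts or more). They gave the levels per length. For the aligner, counting tool, build and strand use: not given in the sources used here. Of the 6 members, 3 had coordinates identical to RefSeq GRCm38.p6, and the coordinates printed for genes are the table's own.

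Counts were tested with edgeR 4.0.16 (R 4.3.3): filterByExpr with a minimum count of 10, TMM, estimateDisp, glmQLFit and glmQLFTest, with Benjamini-Hochberg adjustment over 19795 genes and a threshold of 0.05. SE is the log2 fold change over the square root of F. DESeq2 1.42.0, limma 3.58.1 voom, other filters, scalings, the replicate block and leaving out each library were alternatives; DESeq2 with a library left out was added after seeing the data. The procedure was tested on simulated counts. Genes named are the members, in each list up to 3 of smallest p, and per member the 3 most alike genes. Members and lists were chosen with earlier results of these data known; 1 listed gene is not reported here. Library totals of 26254649 to 30034191 counts set the counting error, and the intervals given come from the spread between libraries.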

Additional observations from a re-analysis of the deposited data

How the results depend on the processing

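The number of genes called by edgeR was 9, and it was 111 with no filter on low counts, 4 with pan-endothelial scaling, 5 with limma voom and 1107 with DESeq2; the cause was not tested. With 1 library left out it ran from 0 to 14 by edgeR (0 without wild type 1, 3 or 4 or NICeCA 3, at 2078 to 3695 genes with an unadjusted p under 0.05) and from 389 to 1454 by DESeq2. With the replicate block edgeR called 0 genes, 1596 having an unadjusted p under 0.05. Libraries of number 1 deviated from their group means with a correlation of -0.21 and those of number 3 with -0.25. With 3 libraries per group these correlations cannot decide whether equal numbers mark pairs. The labels state no pairing, and none was assumed. Only numbers 1 and 3 occur in both genotypes, so wild type 4 and NICeCA 2 each form a block of their own. The fold change under the block thus rests on the libraries numbered 1 and 3. In that fit Angpt2 stood at 0.64 and Angpt1 at 0.64. Angpt2 kept a positive value in every setting run, from 0.72 to 0.96 by edgeR with 1 library left out, and was called by DESeq2 at 0.88, and at 0.73 to 0.97 with 1 library left out. Tek was negative throughout, from -0.72 to -0.35 by edgeR, and DESeq2 without a library gave -0.71 to -0.35. Tie1 (-0.38 to -0.13) and Ptprb (-0.29 to -0.013) also kept their sign with 1 library left out. Angpt1 ran from -0.19 to 0.41 by edgeR and -0.19 to 0.42 by DESeq2. The 4 ratios kept their direction in each alternative. Among other genes of overlapping groups, Elmo3 turned to 0.098 with pan-endothelial scaling, 0.051 with library totals and 0.51 with the replicate block, and Angptl1 to 0.070, 0.035 and 0.016 with the same settings. With 1 library left out, edgeR gave -0.18 to 0.010 for Angptl1, -0.23 to 0.24 for Elmo3, -0.24 to 0.029 for Kdr, -0.13 to 0.44 for Sox6 and -0.077 to 0.40 for Tmem25. With 1 library left out DESeq2 also called Angptl6, Foxo4 and Il27ra (without wild type 1), Dok2, Irs2 and Pak1 (without wild type 4) and Erg, Sesn3, Paqr7, C1qtnf1 and Il27ra (without NICeCA 1).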
